A study of Homo sapiens with 27 samples.

Results

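The response of TADA2B knockout A375 cells to trametinib was measured as the difference between 6 RNA sequencing libraries of knockout cells given trametinib and 6 libraries of knockout cells given DMSO, out of 27 libraries in the series. A375 is an established human melanoma line in which a BRAF mutation keeps that kinase active. The libraries fall into 4 groups of 3, namely guide 2 knockout cells in 20 nM trametinib, guide 1 knockout cells in 20 nM trametinib, guide 2 knockout cells in DMSO and guide 1 knockout cells in DMSO, all harvested at 24 h. Every cell in the comparison carried a guide RNA against TADA2B, and each guide made its own edited population, so the guide entered the model as a block. The labels do not say whether these populations were clones or pools, and the control cells and the vemurafenib libraries of the series were not used.

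Trametinib inhibits MEK, the kinase that phosphorylates and activates ERK, and in BRAF-mutant melanoma the BRAF, MEK and ERK chain is permanently switched on. ERK drives the transcription of its own inhibitors (DUSP phosphatases, Sprouty and SPRED proteins), of ETS and AP-1 transcription factors, and of cyclin D1, which opens the way into S phase. TADA2B is an adaptor subunit of SAGA, a coactivator complex that acetylates histones at promoters. Melanoma cells under MAPK inhibition are known to shift along a differentiation axis that runs from undifferentiated through neural crest-like to melanocytic states.

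The 12 libraries held between 67502300 and 92513726 gene counts each. Mitochondrially encoded genes took 3.13% to 3.58% of counts in trametinib and 2.33% to 2.74% in DMSO, and their part in the results was not tested. The first principal component held 73.5% of the variance and separated trametinib from DMSO, and the second held 5.25% and separated the guides. TADA2B itself (ENSG00000173011, chr4:7041899-7057952, plus strand, hg38) was still transcribed, at 29.1, 29.8 and 30.2 CPM (counts scaled to a common library size, as usual for this unit) in guide 2 cells in trametinib, against 29.2, 27.5 and 30.0 CPM in guide 2 cells in DMSO. In guide 1 cells it stood at 35.0, 36.2 and 35.5 CPM in trametinib and 29.9, 31.4 and 30.9 CPM in DMSO. By the test described below, TADA2B was called higher in trametinib (log2 0.13), by 0.21 with guide 1. The value of 0.04 with guide 2 did not pass, nor did the difference between guides (-0.17). Because a frameshift need not remove the messenger RNA, the guides' effect on the protein was not checked by these counts. The defining melanoma factor SOX10 was between 276 and 531 CPM in trametinib and between 272 and 469.9 CPM in DMSO, so the line's identity marker was present in every library.

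Most of the transcriptome moved. Of 23928 genes tested, 17442 (72.9%) passed edgeR's quasi-likelihood test at an adjusted p under 0.05, 9090 of them higher in trametinib (38%) and 8352 lower (34.9%). With a change of at least 2-fold as well, 5122 genes (21.4%) remained, 3068 higher (12.8%) and 2054 lower (8.58%), and 2601 passed with a stricter low-count filter. Changes of at least 16-fold were called for 120 higher and 132 lower genes, and changes of at least 100-fold for 12 higher and 19 lower genes. All 6 trametinib libraries lay above all 6 DMSO libraries for 6147 genes (25.7%) and below them for 6373 genes (26.6%). Counts of called members of a gene list are to be read against these shares. All fold changes are scaled to the library as a whole by TMM. With library totals in place of TMM factors the median of all genes moved to log2 0.19, against 0.04, and 11594 genes were called higher and 6292 lower, a share of 64.8% higher against 52.1%. In bulk RNA, fewer cells of a kind and less RNA per cell cannot be told apart. Separate cultures for the 3 libraries of a group are not stated in the labels, and the p-values then rest on a spread that may be only technical.

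The ERK feedback genes were among those that fell most. DUSP6 (ENSG00000139318, chr12:89347232-89353271, minus strand), the phosphatase that inactivates ERK, had 0.585, 0.790 and 0.887 CPM (lowest, median and highest of 6 libraries) in trametinib, against 161, 178 and 187 CPM in DMSO. It fell 227-fold (log2 -7.83 ± 0.045; errors after log2 values are standard errors, and 6 libraries stand on each side). SPRY4 (chr5:142310427-142326455, minus strand), a Sprouty inhibitor of receptor signalling to RAS, had 0.647, 0.949 and 1.26 CPM in trametinib, against 118, 158 and 199 CPM in DMSO, and fell 165-fold. Every trametinib library lay below every DMSO library for both genes, and the test of a difference between guides did not pass for DUSP6 (-0.02 ± 0.14) or SPRY4 (0.20 ± 0.13).

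ETV4 and ETV5 are ETS transcription factors that ERK induces. ETV4 (chr17:43527844-43579620, minus strand) had 1.76, 2.03 and 2.52 CPM in trametinib, against 179.9, 190.5 and 201 CPM in DMSO, and fell 91.2-fold. ETV5 had 1.10, 1.43 and 1.51 CPM in trametinib, against 109, 124 and 133 CPM in DMSO, and fell 89.5-fold. Lower still in level was EGR2, an immediate early zinc finger factor, at 0.0279 to 0.155 CPM in trametinib and 1.88 to 3.02 CPM in DMSO (log2 -4.68 ± 0.20). The related factor EGR1 fell 14.8-fold, and SPRY1 and SPRY2 fell 25.4-fold and 17.7-fold. All 28 members of the list of MAPK feedback and output genes fell, 27 of them at least 2-fold. Over all genes tested 34.9% fell, 8.58% by at least 2-fold. The list had a median log2 of -3.11 beside 0.04 over all genes tested. All 28 had every trametinib library below every DMSO library, beside 26.6% of all genes. The list median was -3.21 with guide 2 and -3.17 with guide 1.

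**Figure D1:**
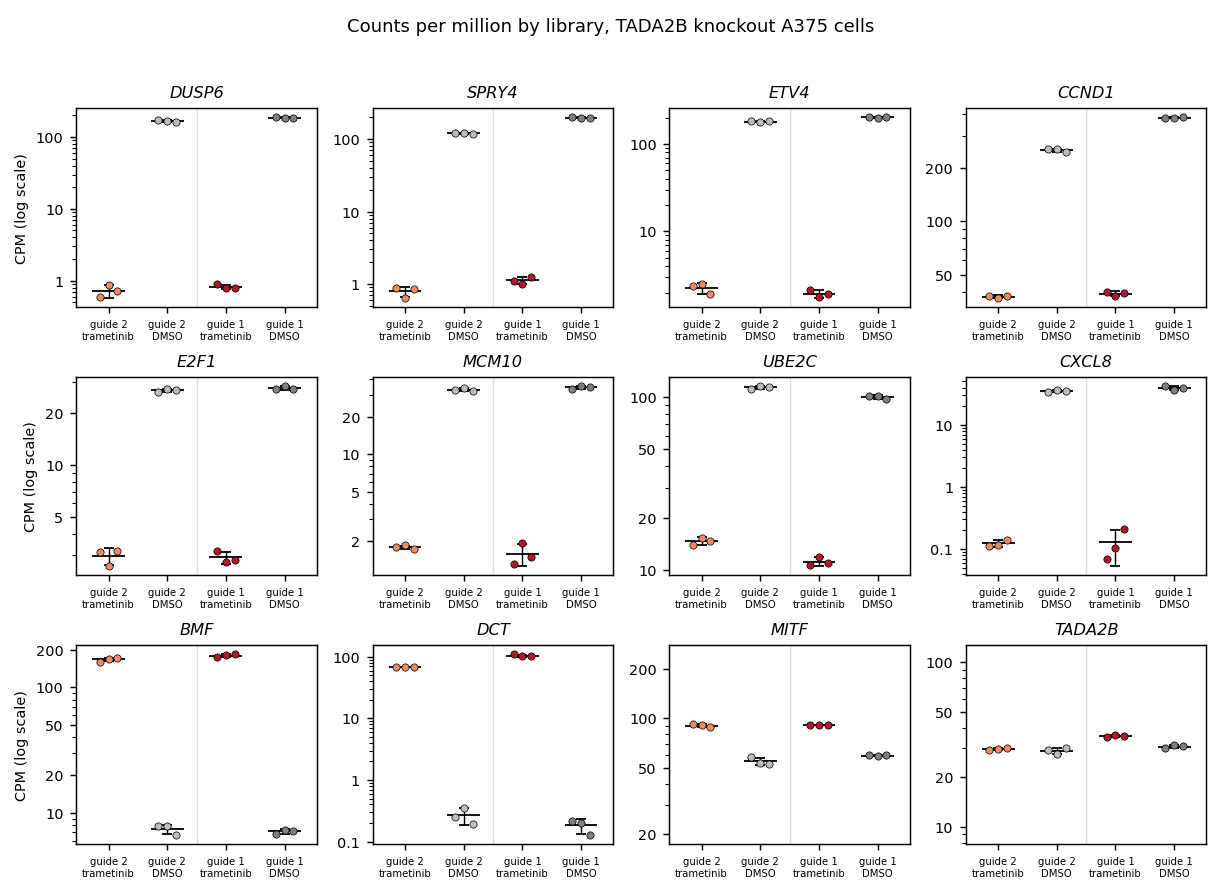
CPM on a log axis for 12 genes, one point per library, in guide 2 and guide 1 knockout cells, with trametinib left of DMSO for each guide; lines and bars are the mean and SD of 3 libraries. DUSP6, SPRY4, ETV4, CCND1, E2F1, MCM10, UBE2C and CXCL8 sit lower in trametinib with both guides, BMF, DCT and MITF sit higher, and the TADA2B libraries lie between 27.5 and 36.2 CPM.

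Outside that list, the falls included secreted factors and surface proteins. CXCL8 (chr4:73740506-73743716, plus strand), the chemokine interleukin-8, had 0.0682, 0.114 and 0.213 CPM in trametinib, against 34.0, 36.4 and 42.5 CPM in DMSO, and fell 295-fold (log2 -8.21 ± 0.09). CEMIP, which helps break down hyaluronan, fell 86.2-fold, with 2.36 to 3.40 CPM in trametinib and 214 to 306 CPM in DMSO. No library of one treatment reached the range of the other for either gene, which the rule that picked them, given below, required. COL13A1, a transmembrane collagen, fell 47.7-fold, TMEM158, a membrane protein induced by RAS, fell 30.5-fold, and SLC14A1, a urea transporter, fell 28.3-fold. AREG, a ligand of the EGF receptor, fell 26.7-fold, and ITGB3, the beta-3 integrin subunit, fell 26.0-fold. These genes, with the 5 named above (DUSP6, SPRY4, ETV4, ETV5 and SPRY1), were the 12 largest falls among protein-coding genes that averaged at least 1 log2 CPM, were called with each guide and had separate libraries.

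By the same rule, the largest rise was that of DCT (ENSG00000080166, chr13:94436808-94479682, minus strand), dopachrome tautomerase, an enzyme of melanin synthesis. It had 68.7, 85.4 and 110.0 CPM in trametinib, against 0.129, 0.210 and 0.357 CPM in DMSO, and rose 378-fold (log2 8.56 ± 0.10). MAP1LC3C, an LC3 protein of autophagy, rose 50.8-fold, with 44.0 to 71.7 CPM in trametinib and 0.868 to 1.56 CPM in DMSO. CD24, a mucin-like surface protein, rose 46.2-fold, with 47.8 to 71.3 CPM in trametinib and 0.891 to 1.93 CPM in DMSO. BMF (chr15:40087890-40108892, minus strand), a BH3-only protein that promotes apoptosis, had 161, 174 and 183 CPM in trametinib, against 6.69, 7.30 and 7.81 CPM in DMSO, and rose 23.7-fold. In all 4 genes every trametinib library stood above every DMSO library, which the rule required.

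SELENOP, a selenium carrier, rose 24.5-fold, and the complement components C4A and C4B rose 24.5-fold and 21.7-fold. C4A and C4B are near-identical copies, and the counting may have split or lost reads between them, so their separate values are uncertain. CCN5, a matricellular protein, rose 20.2-fold. RPRM (reprimo), a cell cycle inhibitor, rose 19.0-fold to 9.49 to 11.1 CPM, PADI2, which converts arginine to citrulline in proteins, rose 18.9-fold, and CSDC2, an RNA-binding protein, rose 18.8-fold. Each of these started low, between 0.296 CPM (SELENOP) and 1.93 CPM (C4A) in DMSO.

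The cell cycle genes fell as whole lists. Promoters of mitosis genes (PLK1, CCNB2), a replication gene (DTL) and an E2F family gene (E2F1) are shown because nearly all genes of these lists fell. RefSeq promoters of the GRCh38.p14 build run from 250 bases before to 50 bases after the start and are written 5′ to 3′ on the gene's strand. Both strands were searched for the CHR element TTTGAA, the box CCAAT, and the E2F motifs TTGGCGC and TTCCCGC, and matches are in capitals. In PLK1 (chr16:23678639-23678938, plus strand) and CCNB2 (chr15:59104896-59105195, plus strand), both genes of mitosis, the capitals mark CHR and CCAAT. In E2F1 (chr20:33686336-33686635, minus strand) and DTL (chr1:212035498-212035797, plus strand), the capitals mark E2F motifs.
PLK1: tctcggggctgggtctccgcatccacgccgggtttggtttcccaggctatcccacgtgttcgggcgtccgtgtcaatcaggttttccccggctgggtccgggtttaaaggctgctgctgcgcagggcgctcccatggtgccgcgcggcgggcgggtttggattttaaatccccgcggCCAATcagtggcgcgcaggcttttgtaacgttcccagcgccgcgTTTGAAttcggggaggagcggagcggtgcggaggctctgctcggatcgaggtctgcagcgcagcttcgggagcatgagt
CCNB2: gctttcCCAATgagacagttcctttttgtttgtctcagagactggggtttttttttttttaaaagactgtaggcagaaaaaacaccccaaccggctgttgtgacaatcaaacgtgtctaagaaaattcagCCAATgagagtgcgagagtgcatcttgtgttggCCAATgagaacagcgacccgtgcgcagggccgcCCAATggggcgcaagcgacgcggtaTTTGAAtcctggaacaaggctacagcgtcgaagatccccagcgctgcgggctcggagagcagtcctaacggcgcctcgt
E2F1: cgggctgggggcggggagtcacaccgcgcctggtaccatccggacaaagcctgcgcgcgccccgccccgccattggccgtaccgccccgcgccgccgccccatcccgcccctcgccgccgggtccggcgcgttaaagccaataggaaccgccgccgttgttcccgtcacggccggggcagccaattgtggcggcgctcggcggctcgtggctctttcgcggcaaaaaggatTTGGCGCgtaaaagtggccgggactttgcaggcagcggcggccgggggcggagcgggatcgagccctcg
DTL: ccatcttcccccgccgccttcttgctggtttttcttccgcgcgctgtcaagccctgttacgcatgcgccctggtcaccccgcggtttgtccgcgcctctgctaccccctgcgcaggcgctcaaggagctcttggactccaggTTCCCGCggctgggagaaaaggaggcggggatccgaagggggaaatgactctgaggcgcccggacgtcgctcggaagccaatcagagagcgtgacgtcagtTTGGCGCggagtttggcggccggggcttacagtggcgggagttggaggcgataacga
PLK1 and CCNB2 each had the CHR letters beginning 29 bases before the start. Of 32 mitosis genes with a listed promoter, 22 (68.8%) held TTTGAA, against 15.4% of all 27305 promoters, and 23 (71.9%) held CCAAT, against 35.7%. Of 37 DNA replication genes with a promoter, 27 (73%) held at least 1 of the E2F motifs, against 9.38% of all promoters. CCAAT was not particular to mitosis genes, since 20 of these 37 (54.1%) held it, while 1 (2.7%) held TTTGAA. CDC45 held neither E2F motif in its window. A match describes the letters and shows no binding, and no test was run on these shares.

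All 38 genes of the mitosis list fell, 37 of them at least 2-fold, with a median log2 of -2.40. Over all genes tested 34.9% fell, 8.58% by at least 2-fold. PLK1, a kinase that drives mitotic entry, had 15.2, 18.2 and 19.4 CPM in trametinib, against 133, 135 and 144 CPM in DMSO (log2 -2.94 ± 0.035). NUF2, a kinetochore subunit, fell by 3.10 on the log2 scale, UBE2C, the ubiquitin-conjugating enzyme of the anaphase-promoting complex, by 3.06, and CENPA, the centromeric histone, by 2.97. MKI67, the Ki-67 proliferation marker, had 46.9 to 64.2 CPM in trametinib and 392 to 434 CPM in DMSO. Every member had all trametinib libraries below all DMSO libraries, beside 26.6% of all genes tested.

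All 42 DNA replication genes fell as well, 36 of them at least 2-fold, beside 34.9% and 8.58% of all genes (median log2 -1.52). MCM10, a factor that activates the replicative helicase, had 1.31, 1.76 and 1.94 CPM in trametinib, against 32.1, 33.7 and 35.4 CPM in DMSO, and fell 20-fold. RRM2, the ribonucleotide reductase subunit that limits nucleotide supply, fell by 3.77 on the log2 scale, the helicase factor CDC45 by 3.50, DTL, which targets CDT1 for destruction, by 3.13, and CLSPN, a checkpoint adaptor, by 3.10. The 20 genes of homologous recombination and the Fanconi pathway all fell (median -1.99), beside 34.9% of all genes. Among them were the helicase BLM at log2 -3.02 ± 0.064 and RAD54L at -2.99 ± 0.11.

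Upstream of these genes stand the cyclins, their kinases and the E2F factors. CCND1 (chr11:69641087-69654474, plus strand), cyclin D1, had 37.0, 37.9 and 40.1 CPM in trametinib, against 244, 317 and 383 CPM in DMSO, and fell 8.08-fold. The trametinib level was alike with both guides, while DMSO libraries ran from 244 to 254 CPM with guide 2 and from 379 to 383 CPM with guide 1. CDC25A, the phosphatase that activates CDK2, fell by 2.95 on the log2 scale, cyclin E2 (CCNE2) by 1.92 and CDK2 by 1.66. Of 8 G1 cyclins and kinases tested 7 fell (87.5%, beside 34.9% of all genes). The exception, chosen after its value was seen, was CDK4, with 188 to 212 CPM in trametinib and 202 to 212 CPM in DMSO (log2 -0.04 ± 0.024, edgeR adjusted p = 0.151).

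E2F1, an activator of S phase genes, had 2.59, 2.99 and 3.18 CPM in trametinib, against 26.5, 27.4 and 28.6 CPM in DMSO, and fell 9.32-fold. E2F2 fell by 2.63 on the log2 scale and the repressive members E2F8 and E2F7 by 1.68 and 1.67. In all, 9 of 10 E2F family genes fell (90%, beside 34.9% of all genes). TFDP2, a dimerization partner named after its value was seen, was the 1 member that rose (log2 0.54). Inhibitors of the cyclin-dependent kinases were mixed. CDKN1A (p21) had 312 to 411 CPM in trametinib and 274 to 290.2 CPM in DMSO (log2 0.37 ± 0.037), CDKN1B (p27) rose by a similar amount (0.35 ± 0.03), and CDKN2C (p18) by 0.64. CDKN2D (p19) fell by 1.82 and RBL1 (p107) by 0.96.

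MYC, the growth-promoting transcription factor, had 0.831, 1.12 and 1.18 CPM in trametinib, against 7.77, 9.99 and 12.1 CPM in DMSO, and fell 9.42-fold. Of 41 genes of the MYC and ribosome biogenesis list 40 fell (97.6%), 16 of them at least 2-fold (median log2 -0.92). Over all genes tested 34.9% fell, 8.58% by at least 2-fold. LYAR, a nucleolar protein, fell by 2.02, NOP16 by 1.71 and DKC1, the pseudouridine synthase dyskerin, by 1.49. The genes of the ribosome itself behaved otherwise. Of 51 cytosolic ribosomal protein genes 15 were called higher and 17 lower, none by 2-fold, with a median of -0.00. These were 29.4% and 33.3%, beside 38% and 34.9% of all genes. That split depends on the scaling, since 41 were called higher and 3 lower with library totals. Chaperone genes fell in 22 of 24 cases (91.7%, beside 34.9% of all genes), with a median of -0.87. HSPA8, the constitutive HSP70, had 663, 679 and 751 CPM in trametinib, against 2285, 2393 and 2469 CPM in DMSO, and HSPH1, CCT5 and STIP1 fell by 1.33, 1.23 and 1.12 on the log2 scale.

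**Figure D2:**
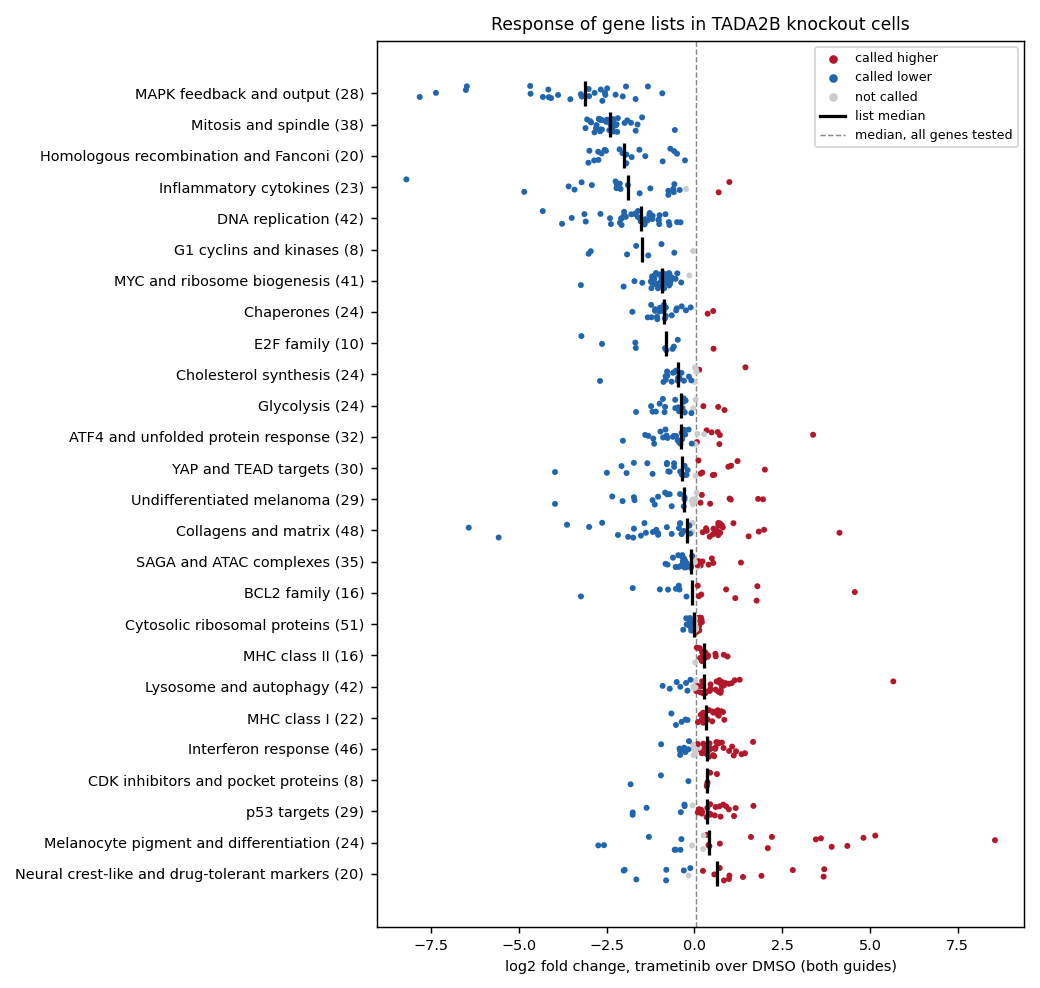
Log2 fold change, trametinib over DMSO over both guides, of each tested member of 26 gene lists (number tested in brackets); red and blue points passed the test as higher or lower, grey points did not, black bars are list medians and the dashed line is the median of all genes tested. The MAPK, mitosis, recombination and replication lists lie wholly left of 0, and the neural crest-like and pigment lists spread to both sides.

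Genes of pigment cell differentiation moved in both directions. Of 29 list members 24 had enough counts to be tested, with MBP, SLC24A4, SLC24A5, TRPM1 and TYR left out. Of these 24, 14 rose and 7 fell (58.3% and 29.2%, beside 38% and 34.9% of all genes), with a median log2 of 0.41. CD36, a fatty acid receptor, had 8.04 to 13.1 CPM in trametinib and 0.155 to 0.505 CPM in DMSO (log2 4.82 ± 0.18). ABCB5, a transporter, had 0.822 to 1.19 CPM in trametinib and 0.0123 to 0.0685 CPM in DMSO (log2 5.15 ± 0.27). KIT, the stem cell factor receptor, had 0.487 to 0.938 CPM in trametinib and 0 to 0.166 CPM in DMSO. ABCB5 and KIT therefore remained low after treatment.

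The classical melanosome genes stayed low in level. PMEL, the fibril protein of melanosomes, rose 1.32-fold, with 2.02 to 2.39 CPM in trametinib and 1.39 to 1.86 CPM in DMSO. MLANA had 1.32 to 1.78 CPM in trametinib and 1.03 to 1.53 CPM in DMSO, and the difference did not pass (log2 0.25 ± 0.12, edgeR adjusted p = 0.0648). It passed with library totals (0.40), with a stricter low-count filter (0.29) and without replicate 2 or 3 of guide 2 cells in trametinib (0.30 and 0.28) or replicate 2 of guide 2 cells in DMSO (0.28). TYR, tyrosinase, was too low to test, at no more than 0.0569 CPM in any library. TYRP1, another enzyme of melanin synthesis, had 1.13 to 2.02 CPM in trametinib and 0.283 to 0.627 CPM in DMSO (log2 1.61 ± 0.17).

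The DCT promoter (RefSeq, GRCh38.p14, chr13:94479633-94479932, minus strand) is shown because DCT led the rises. Capitals mark the core TCATGTG of the M-box, an element that MITF is known to bind, or its reverse complement.
DCT: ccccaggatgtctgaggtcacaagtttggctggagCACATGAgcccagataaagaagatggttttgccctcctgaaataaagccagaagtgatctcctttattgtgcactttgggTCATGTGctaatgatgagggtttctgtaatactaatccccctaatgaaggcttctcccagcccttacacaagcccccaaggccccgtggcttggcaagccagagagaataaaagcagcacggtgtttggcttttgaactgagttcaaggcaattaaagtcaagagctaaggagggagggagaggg
The core occurred beginning 215 and 135 bases before the start. It was found in 6 of 22 promoters of the pigment list (27.3%), against 2.98% of all promoters, which is a description and no evidence of binding.

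MITF (chr3:69739435-69968337, plus strand), the main transcription factor of melanocytes, had 88.4, 91.0 and 92.2 CPM in trametinib, against 52.7, 58.4 and 59.8 CPM in DMSO, and rose 1.59-fold. SOX10 had a log2 change of 0.10 ± 0.024 and overlapping libraries, and its call was lost without the guide block (0.12, edgeR adjusted p = 0.696). Its change was 0.04 ± 0.026 with guide 2, which did not pass, and 0.16 ± 0.026 with guide 1, a difference of -0.12 ± 0.037 (edgeR adjusted p = 0.0228). Larger rises belonged to neural crest factors. SNAI2 had 6.98 to 13.3 CPM in trametinib and 1.19 to 1.92 CPM in DMSO (log2 2.64 ± 0.084), SOX2, a stem cell factor, rose by 1.97 and FOXD3, a neural crest specifier, by 1.88. The AP-2 factors TFAP2C and TFAP2B fell by 1.78 and 1.36. TFAP2A, named after its values were seen, went the other way, with 22.6 to 26.2 CPM in trametinib and 14.1 to 16.6 CPM in DMSO. Of 21 transcription factors of the lineage 12 rose and 7 fell (57.1% and 33.3%, beside 38% and 34.9% of all genes).

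Among 20 tested neural crest-like and drug-tolerant markers, 12 rose and 7 fell (60% and 35%, beside 38% and 34.9% of all genes), with a median of 0.63. The libraries of the treatments were separate for 9 of the 20, beside 12520 of all 23928 genes tested. GRIN2A, a glutamate receptor subunit, had 5.67 to 11.7 CPM in trametinib and 0.467 to 0.841 CPM in DMSO, and GFRA1, a GDNF receptor, had 4.63 to 9.26 CPM in trametinib and 0.320 to 0.677 CPM in DMSO. RXRG, a retinoid receptor used as a marker of drug tolerance, fell by 2.02 on the log2 scale and the adaptor SHC4 by 1.99. NGFR, the p75 neurotrophin receptor and another marker of the state, had 24.4, 40.4 and 54.9 CPM in trametinib and 34.6, 42.9 and 51.2 CPM in DMSO. Its libraries overlapped and the joint change did not pass (log2 -0.17 ± 0.099, edgeR adjusted p = 0.158). With guide 2 it was -0.46 ± 0.046 and with guide 1 0.10 ± 0.042, and that difference passed the test (-0.56 ± 0.062, edgeR adjusted p = 1.12e-08). The joint change passed in the 27-library model (-0.19) and with group means in place of the guide block (-0.18).

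Of 29 markers of undifferentiated melanoma, 16 fell and 7 rose (55.2% and 24.1%, beside 34.9% and 38% of all genes), with a median of -0.28. NT5E (CD73), which makes adenosine, had 7.43, 8.92 and 10.1 CPM in trametinib, against 129, 138 and 149.9 CPM in DMSO. ITGA2, the alpha-2 integrin, fell by 2.34 on the log2 scale, F2RL1, a protease-activated receptor, by 2.05, EGFR by 1.71 and AXL, a receptor kinase, by 0.28. SLIT2, a guidance ligand, and FOSL2 rose by 1.95 and 1.81. No single direction therefore covered these markers.

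**Figure D3:**
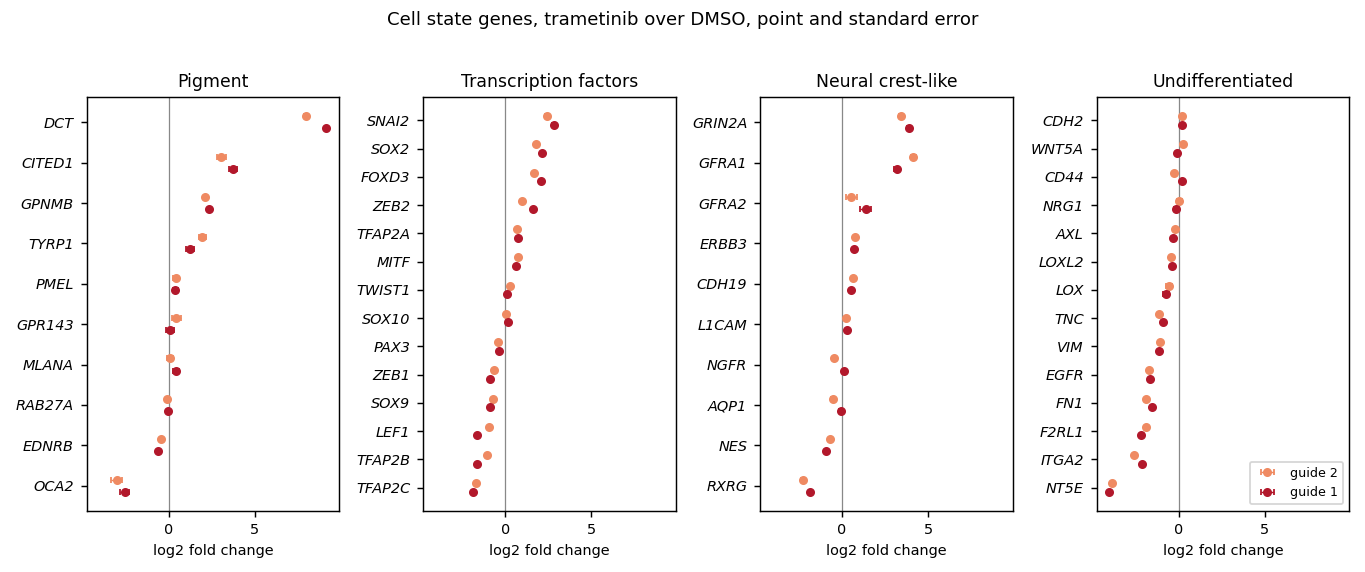
Log2 fold change, trametinib over DMSO, with its standard error for 48 cell state genes in guide 2 (orange) and guide 1 (dark red) knockout cells, grouped as pigment, transcription factor, neural crest-like and undifferentiated genes. DCT stands far to the right of the other pigment genes (7.96 with guide 2 and 9.16 with guide 1), and NGFR is on opposite sides of 0 for the guides.

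Receptor and ligand genes were called in both directions. TGFA, a ligand of the EGF receptor, had 41.3, 43.6 and 45.8 CPM in trametinib, against 593, 787 and 959.8 CPM in DMSO, and fell 17.7-fold. AREG fell by 4.74 on the log2 scale, and EREG had 0 to 0.0473 CPM in trametinib and 0.0959 to 0.378 CPM in DMSO. KITLG, the ligand of KIT, rose 4.52-fold, with 16.1 to 30.7 CPM in trametinib and 4.81 to 5.44 CPM in DMSO. ERBB3, the neuregulin receptor, had 279, 283 and 281 CPM in guide 2 cells in trametinib and 171, 163 and 163 CPM in guide 2 cells in DMSO. In guide 1 cells it had 486, 509 and 498 CPM in trametinib and 308, 311 and 314 CPM in DMSO, so the treatments were separate within each guide (log2 0.72 ± 0.022) though their ranges overlapped across guides. NTRK2, a BDNF receptor, and FGFR2 rose by 3.24 and 3.16, and FLT1, a VEGF receptor, fell by 3.10. Over 25 receptor tyrosine kinases 11 rose and 10 fell (44% and 40%), and over 26 ligands 9 rose and 11 fell (34.6% and 42.3%). Both lists were near the 38% and 34.9% of all genes tested.

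Genes of insulin receptor and FOXO signalling are often raised when growth signalling is low. TXNIP, a glucose-sensing inhibitor of glucose uptake, had 493, 503 and 518 CPM in trametinib, against 51.0, 56.3 and 59.1 CPM in DMSO, and rose 9.02-fold. PIK3IP1, an inhibitor of PI3 kinase, rose by 3.11 on the log2 scale and FOXO6 by 2.12, while TRIB2, a pseudokinase that restrains FOXO, and IRS1, an insulin receptor substrate, fell by 2.76 and 1.87. In all 8 of 15 rose and 5 fell (53.3% and 33.3%, beside 38% and 34.9% of all genes).

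Within the AP-1 and ATF family the members split. FOSL1, which ERK stabilizes, had 7.25, 7.56 and 8.53 CPM in trametinib, against 83.1, 90.0 and 94.4 CPM in DMSO, and fell 11.6-fold. JUN (chr1:58780788-58784327, minus strand) had 93.3, 154 and 214 CPM in trametinib, against 12.7, 14.6 and 17.9 CPM in DMSO, and rose 9.53-fold. ATF3, a stress-induced factor, rose 7.43-fold and MAF by 2.16 on the log2 scale, while MAFF fell by 2.55. Of 16 tested 9 rose and 6 fell (56.2% and 37.5%, beside 38% and 34.9% of all genes).

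Genes of cell death also moved in both directions. BCL2, the founding inhibitor of apoptosis, had 0.851, 1.08 and 1.39 CPM in trametinib, against 9.76, 10.2 and 11.2 CPM in DMSO, and fell 9.4-fold. BCL2L11 (BIM), a killer protein that ERK marks for destruction, rose 2.24-fold, with 27.1 to 32.6 CPM in trametinib and 12.6 to 13.9 CPM in DMSO. HRK, another BH3-only gene, and BCL2A1, an inhibitor of apoptosis, rose by 1.77 and 1.79 on the log2 scale, and PMAIP1 (NOXA), a BH3-only gene, fell by 1.76. Across the 16 genes, which hold both promoters and inhibitors of apoptosis, 8 rose and 8 fell (50% each). Over all genes tested 38% rose and 34.9% fell. The p53 target list had 22 of 29 higher and 6 lower (75.9% and 20.7%, beside 38% and 34.9% of all genes), with a median of 0.37. TP53INP1 was at log2 1.68 ± 0.031 and SESN3 at 1.17 ± 0.063, with PLK3 and AEN at -1.76 ± 0.057 and -1.36 ± 0.028.

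Inflammatory genes fell and antigen presentation genes rose by small amounts. Of 23 cytokine and NF-kB genes tested 20 fell and 2 rose (87% and 8.7%, beside 34.9% and 38% of all genes). The median was -1.90. IL11 had 2.91 to 4.11 CPM in trametinib and 31.2 to 52.3 CPM in DMSO (log2 -3.58 ± 0.055), and CXCL3 fell by 3.42. NFKBIA, the NF-kB inhibitor, and IL32 were the 2 that rose, by 0.69 and 1.00, and are named after their values were seen. Of 46 interferon response genes 32 rose and 8 fell (69.6% and 17.4%, beside 38% and 34.9% of all genes), with a median of 0.35. UBA7, which activates ISG15, rose by 1.67, the antiviral factor TRIM22 by 1.44 and the RNA sensor DHX58 by 1.18. Rises of at least 2-fold were called for 6 of the 46 genes, beside 12.8% of all genes. In MHC class I presentation 17 of 22 rose, led by TAPBPL at 0.85 ± 0.053 and HLA-E at 0.81 ± 0.022, and in class II 15 of 16 rose. These were 77.3% and 93.8%, beside 38% of all genes tested. The libraries of the treatments were separate for 16 of the 22 class I genes but for only 3 of the 16 class II genes. Over all genes tested they were separate for 12520 of 23928. None of the 38 genes of either MHC list changed 2-fold.

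In metabolism, 19 of 24 glycolysis genes fell (median -0.39), among them the glucose transporter SLC2A3 by 1.66, PFKFB3 by 1.19 and LDHA, with 471 to 500.0 CPM in trametinib and 970.4 to 1121 CPM in DMSO, by 1.10. Of 24 cholesterol genes 18 fell (median -0.46). The falls made up 79.2% of glycolysis and 75% of cholesterol genes, beside 34.9% of all genes tested. TM7SF2, a sterol reductase, rose by 1.45. Lipid handling genes changed individually, with LPL, lipoprotein lipase, lower by 3.85 on the log2 scale and PPARG lower by 1.73. Lysosome and autophagy genes rose in 31 of 42 cases (73.8%, beside 38% of all genes), with a median of 0.29. The cathepsins CTSH, CTSF and CTSA were at 1.29, 1.06 and 0.99. ATF4 and unfolded protein response genes fell in 22 of 32 cases (68.8%, beside 34.9% of all genes), with a median of -0.38. SLC7A11, the cystine transporter, fell by 2.04 and MTHFD2 by 1.40, while NUPR1, a stress-induced nuclear protein, rose by 3.38.

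Matrix and signalling lists were divided. Of 48 matrix genes 26 fell and 20 rose (54.2% and 41.7%). Over all genes tested 34.9% fell and 38% rose, to be set beside this list and those that follow. MMP1, interstitial collagenase, fell by 3.63 on the log2 scale and TIMP3, a metalloprotease inhibitor, by 3.00, while COL21A1 had 16.5 to 28.1 CPM in trametinib and 0.634 to 1.77 CPM in DMSO. Of 30 YAP and TEAD targets 20 fell (66.7%, median -0.34), IGFBP3 by 2.50 and TGM2 by 1.93. In the TGF-beta and BMP list 16 of 30 fell (53.3%), FST (follistatin) by 4.01, and ID2 rose by 1.65. Of 27 WNT genes 16 fell and 8 rose (59.3% and 29.6%), with WNT5B higher by 3.27 and SFRP1, a WNT antagonist, lower by 2.60. Among semaphorins, ephrins and their receptors, 14 of 33 rose and 16 fell (42.4% and 48.5%), with EPHA5 at 3.60 ± 0.053 and EPHA2 at -2.54 ± 0.035.

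Genes of SAGA, to which TADA2B belongs, were listed together with those of the related ATAC complex. Of 35 SAGA and ATAC genes 20 fell and 10 rose (57.1% and 28.6%, beside 34.9% and 38% of all genes), with a median of -0.10. With library totals 16 fell and 16 rose (median 0.05). KAT2B (PCAF), the acetyltransferase that can take the place of KAT2A (GCN5), was the 1 member past 2-fold. It had 170.1, 164 and 163 CPM in guide 2 cells in trametinib, against 73.8, 73.1 and 77.0 CPM in guide 2 cells in DMSO. In guide 1 cells it had 253, 244 and 238 CPM in trametinib, against 90.0, 85.3 and 84.8 CPM in DMSO. It rose 2.51-fold (log2 1.33 ± 0.060). KAT2A had 66.9 to 73.7 CPM in trametinib and 72.1 to 78.1 CPM in DMSO (log2 -0.10 ± 0.028), and with library totals its value was 0.05 and did not pass the test. POLE3 fell by 0.82 and WDR5, a scaffold of ATAC, by 0.61.

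Markers of other cell types were present and moved. Summed fibroblast markers were at 142 to 178.5 CPM in trametinib and 75.1 to 92.0 CPM in DMSO. Of 10 tested 7 were higher and 2 lower (70% and 20%, beside 38% and 34.9% of all genes). PDGFRA went the other way from the sum, with 0.632 to 1.84 CPM in trametinib and 2.39 to 3.695 CPM in DMSO. COL1A2 was at no more than 0.121 CPM and PDPN at no more than 0.0950 CPM in any library. Keratinocyte and hemidesmosome markers summed to 1087 to 1130 CPM in trametinib and 1489 to 1670 CPM in DMSO. Of 25 tested 15 were higher and 6 lower (60% and 24%, beside 38% and 34.9% of all genes). Among those lower, ITGA6 had 100.1 to 194 CPM in trametinib and 379.5 to 599 CPM in DMSO, and KRT18 had 93.3 to 128 CPM in trametinib and 249.6 to 269 CPM in DMSO. Leukocyte markers summed to 18.8 to 22.8 CPM in trametinib and 29.6 to 40.7 CPM in DMSO, the B cell marker MS4A1 was at 0 in all 12 libraries, and CD3E and FCGR3A did not exceed 0.0910 CPM. Of that sum LYZ (lysozyme) held 12.0 to 16.2 CPM in trametinib and 24.9 to 36.1 CPM in DMSO, while PTPRC (CD45) had 0.958 to 1.55 CPM in trametinib and 0.0123 to 0.160 CPM in DMSO. Endothelial markers summed to 16.4 to 18.9 CPM in trametinib and 24.0 to 30.3 CPM in DMSO. Of 9 tested 4 were higher and 5 lower (44.4% and 55.6%, beside 38% and 34.9% of all genes). PECAM1 had 0.154 to 0.307 CPM in trametinib and 2.47 to 3.97 CPM in DMSO. TEK had 3.12 to 4.01 CPM in trametinib and 0.254 to 0.649 CPM in DMSO, and VWF had 3.81 to 5.72 CPM in trametinib and 0.854 to 1.56 CPM in DMSO. Melanoma identity markers summed to 1117 to 1457 CPM in trametinib and 1043 to 1403 CPM in DMSO. The part of other cells in the results was not tested.

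The populations made with guide 2 and guide 1 moved mostly in the same direction. With guide 2 alone 15609 genes were called (65.2%; 33.2% higher and 32% lower), and with guide 1 alone 16140 (67.5%; 34.5% higher and 32.9% lower). Changes of at least 2-fold were called for 4800 genes with guide 2 (20.1%, as 11.7% higher and 8.34% lower) and for 5182 with guide 1 (21.7%, as 13% higher and 8.64% lower). A total of 6872 genes rose with each guide (28.7%) and 6832 fell with each guide (28.6%), while 120 were called in opposite directions. Across genes the log2 fold changes of the guides had a Pearson r of 0.908, which describes 23928 genes that are not independent replicates. The test of the difference itself called 2590 genes (10.8%), of which 1664 (6.95%) were more positive with guide 2 and 926 (3.87%) more negative. With library totals the split was 1130 more positive and 1343 more negative, so the direction of small differences between guides depends on the scaling. Only 118 (0.493%) differed by at least 2-fold as well, 47 more positive (0.196%) and 71 more negative (0.297%) with guide 2.

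**Figure D4:**
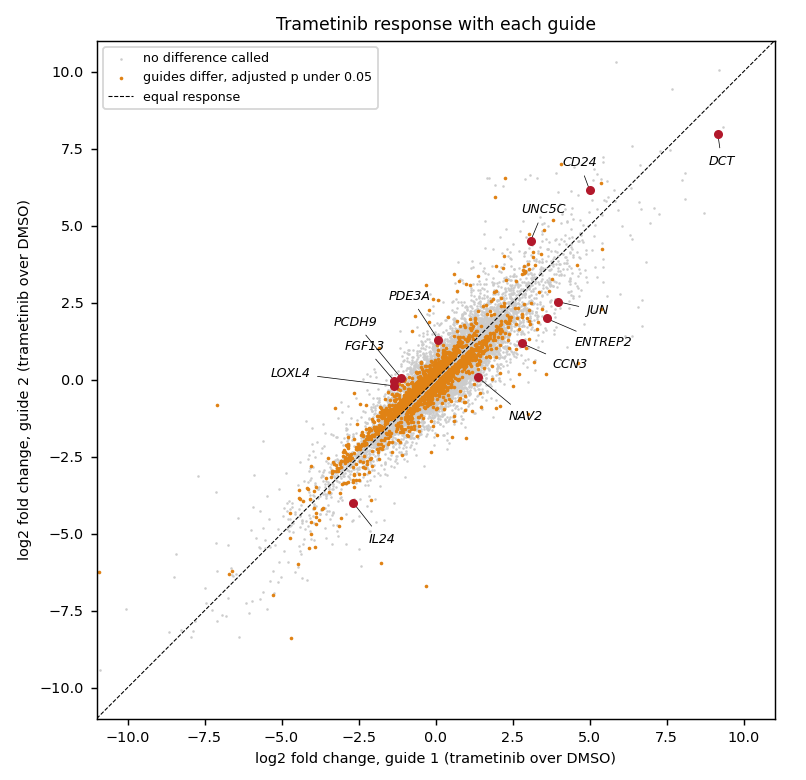
Log2 fold change, trametinib over DMSO, with guide 2 (y axis) and guide 1 (x axis), one point per gene tested; orange points differed between guides and dark red points are the 12 named genes. The points follow the line of equal response (r 0.908), with UNC5C and CD24 above it and JUN, CCN3 and ENTREP2 below it.

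Of the 38 mitosis genes 18 differed between guides, and 17 of them were more positive with guide 2, meaning a smaller fall (beside 6.95% of all genes). The list median was -2.29 with guide 2 and -2.56 with guide 1. UBE2C differed by 0.21 ± 0.059, and for PLK1 the difference of 0.11 ± 0.057 did not pass. Of the 28 MAPK genes 16 differed (beside 10.8% of all genes). Of these, 10 were more negative with guide 2 and 6 more positive (beside 3.87% and 6.95% of all genes). DUSP4, an ERK-induced phosphatase named after its values were seen, fell by 4.61 with guide 2 and 4.05 with guide 1, while SPRY2 fell by 3.83 with guide 2 and 4.43 with guide 1. For CCND1, which fell by 2.74 with guide 2 and 3.29 with guide 1, the levels in trametinib were close and the DMSO levels differed.

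The AP-1 genes JUN, ATF3 and FOSL2 rose less with guide 2. JUN had 93.3, 97.4 and 97.0 CPM in guide 2 cells in trametinib, against 15.4, 16.7 and 17.9 CPM in guide 2 cells in DMSO. In guide 1 cells it had 209.8, 214 and 211 CPM in trametinib, against 13.9, 12.7 and 13.7 CPM in DMSO. The rise was 2.53 ± 0.039 with guide 2 and 3.98 ± 0.04 with guide 1 on the log2 scale, a difference of -1.45 ± 0.056 (edgeR adjusted p = 5.67e-22), and the trametinib libraries of the guides did not overlap. ATF3 and FOSL2, which pair with JUN, differed the same way, by -1.16 ± 0.099 and -1.05 ± 0.045, whereas for FOSL1 the difference of 0.10 ± 0.066 did not pass (edgeR adjusted p = 0.388). Of the 16 AP-1 and ATF genes tested, 7 differed between guides and 6 of these were more negative with guide 2. Over all genes tested 10.8% differed and 3.87% were more negative.

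CCN3, a matricellular growth inhibitor, showed the most negative difference of the genes named. It had 79.7, 79.8 and 81.5 CPM in guide 2 cells in trametinib, against 34.6, 36.8 and 35.3 CPM in guide 2 cells in DMSO. In guide 1 cells it had 269.8, 255 and 251 CPM in trametinib, against 37.9, 37.3 and 36.2 CPM in DMSO. The DMSO libraries of the guides overlapped, and the response differed by -1.63 ± 0.046. NAV2, a cytoskeletal navigator protein, had a value of 0.08 ± 0.063 with guide 2 that did not pass and rose by 1.37 with guide 1. IL24, a cytokine of the IL-10 family, fell with both guides, to 3.07, 2.85 and 2.48 CPM in guide 2 cells and 8.44, 7.68 and 8.06 CPM in guide 1 cells in trametinib, against 43.9 to 51.9 CPM in DMSO. DCT rose by 7.96 with guide 2 and 9.16 with guide 1, a difference that did not pass with limma voom or without replicate 2 of guide 2 cells in DMSO (-0.93). ENTREP2, a membrane protein, rose by 1.98 with guide 2 and 3.60 with guide 1.

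In the other direction, UNC5C, a netrin receptor, rose by 4.51 with guide 2 and 3.09 with guide 1, and CD24 by 6.14 with guide 2 and 5.00 with guide 1. PDE3A, a phosphodiesterase that breaks down cyclic nucleotides, had 39.4, 37.6 and 40.7 CPM in guide 2 cells in trametinib, against 15.4, 16.4 and 15.9 CPM in guide 2 cells in DMSO. In guide 1 cells it had 29.5, 29.9 and 30.3 CPM in trametinib and 28.2, 29.2 and 27.5 CPM in DMSO, a change that did not pass (0.08 ± 0.043). FGF13, PCDH9 and LOXL4, an intracellular FGF, a protocadherin and a lysyl oxidase, had values of -0.03, 0.05 and -0.20 with guide 2, of which only LOXL4 passed. With guide 1 they fell by 1.35, 1.12 and 1.36. For these 3 genes and PDE3A the DMSO libraries of the guides did not overlap, so these populations stood apart in DMSO too.

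**Figure D5:**
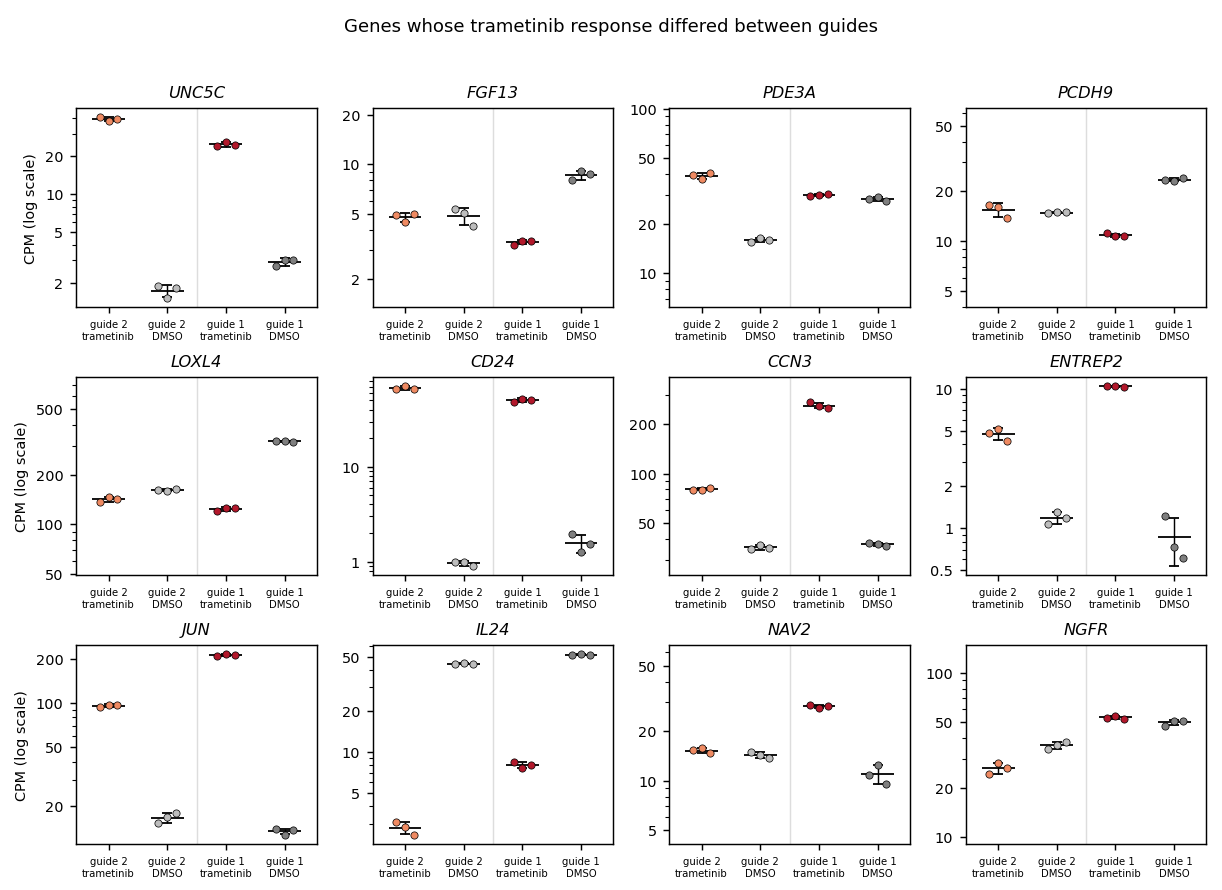
CPM on a log axis, one point per library, for 11 of the 12 genes named for a difference between guides and for NGFR, with trametinib left of DMSO for each guide; lines and bars are the mean and SD of 3 libraries. JUN and CCN3 have close DMSO levels and a lower trametinib level in guide 2 cells, and LOXL4 has 160 to 165 CPM in guide 2 cells in DMSO, against 317 to 320.1 CPM in guide 1 cells in DMSO.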

How the data were processed

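The deposited table holds raw read counts per gene, which the authors made from RNA of A375 cells (RNeasy Plus Mini, KAPA Stranded mRNA-Seq kit, per the labels' protocols). The submitters' processing notes name bcl2fastq, HISAT2, HTSeq and hg38. The sources used here give no versions, annotation or strand setting, and reads of overlapping and antisense genes may be mixed. Gene types and coordinates were taken from GENCODE 29, and symbols and promoters from RefSeq tables.

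The 12 knockout libraries in trametinib or DMSO, of 67502300 to 92513726 counts, were fitted with edgeR 4.0.16 (R 4.3.3). Genes passing filterByExpr (23928) were scaled by TMM, and a robust quasi-likelihood model with guide and treatment as additive terms gave the joint response. A model of the 4 group means gave the response with each guide and the difference between guides. Adjusted p-values are Benjamini-Hochberg over all genes tested, with a threshold of 0.05, and name edgeR's quasi-likelihood test throughout. Standard errors are the log2 fold change divided by the root of its F value, and CPM values use the TMM-scaled library total. Folds are from the fitted log2 values. On data simulated for the joint response (22546 genes), 81.2% of genes changed by 1 on the log2 scale were recovered, and 62% for the difference between guides. For changes of 0.5 the shares were 75.8% and 43.8%. The simulation changed far fewer genes than were called in the data, so these shares need not hold for the data.

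The genes named are the 12 largest rises and 12 largest falls that met the rule in the text, the 6 most positive and 6 most negative differences between guides, up to 5 called members of each of 44 lists, and a fixed set of pathway genes. A few genes that the rule selects are not reported here. The members and lists were chosen with earlier results of these data known. Alternatives covered scaling, the low-count filter, the guide term, the replicate number, DESeq2 1.42.0, limma 3.58.1, all 27 libraries and leaving out each library.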

Additional observations from a re-analysis of the deposited data

Results flagged for a closer look

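The 12 genes below are listed because the test of the difference itself, guide 2 response minus guide 1 response, passed at an adjusted p under 0.05 (edgeR) and their differences were the most positive or most negative among well-measured protein-coding genes. The more positive responses with guide 2 were those of UNC5C (1.42 on the log2 scale), FGF13 (1.32), PDE3A (1.22), PCDH9 (1.17), LOXL4 (1.16) and CD24 (1.14). The more negative ones were those of CCN3 (-1.63), ENTREP2 (-1.62), JUN (-1.45), IL24 (-1.31), NAV2 (-1.29) and DCT (-1.20).

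In DMSO the libraries of the guides did not overlap for UNC5C, FGF13, PDE3A, PCDH9, LOXL4, CD24, JUN, IL24 and NAV2, and they overlapped for CCN3, ENTREP2 and DCT. Each guide is represented by 1 edited population, so a difference between guides and a difference between populations cannot be told apart.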

How the results depend on the processing

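The 4 counts of called genes stayed within 1.5 times of the reported count in every alternative run, at 13541 to 18690 genes for the joint response, 12837 to 16022 with guide 2, 13141 to 16628 with guide 1 and 2023 to 3090 for the difference between guides. Counts with a change of at least 2-fold depended on the low-count filter. With at least 1 CPM in at least 6 libraries they were 2601 for the joint response, 2521 with guide 2, 2787 with guide 1 and 43 for the difference, which was also 47 with the DESeq2 Wald test. The stricter filter tests fewer genes of low count. DESeq2 gave no adjusted p for 7887 genes in that difference. With library totals, 1130 genes were more positive and 1343 more negative with guide 2, and the cause was not tested. Of 59 results for named genes 54 kept direction and call throughout. KAT2A reversed with library totals (log2 0.0537, edgeR adjusted p = 0.0796), a scaling that moves the median of all genes up. The DCT difference between guides did not pass with limma voom (-1.17, adjusted p = 0.0853) or without guide 2 DMSO replicate 2 (-0.93, edgeR adjusted p = 0.0711). Changes for MLANA, SOX10 and NGFR stand beside their results. Leaving out each library in turn gave 17229 to 17412 genes for the joint response. Same-numbered libraries deviated together only weakly (r of deviations 0.000666 to 0.0385, too low to pair them), and 27 of 36 comparisons correlated best with their own number, a hint from the data and not the design. With the replicate block the counts were 17378 for the joint response, 15775 with guide 2, 16317 with guide 1 and 3090 for the difference.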

Other observations

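Gene types moved unequally in the joint response. Of 1854 antisense genes tested, 45.1% were called higher in trametinib and 14.5% lower (median log2 0.41), and of 1943 lincRNA genes 45.5% were higher and 19% lower (median 0.36). Of 15548 protein-coding genes 40.2% were higher and 42.3% lower (median -0.01), and of 2298 processed pseudogenes 14.8% were higher and 29.1% lower. Whether the counting used the strand is not given in the sources used here, so reads of an antisense gene and its partner may be mixed.

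Hypoxia response genes fell in 15 of 24 cases and rose in 5 (62.5% and 20.8%, beside 34.9% and 38% of all genes). The median was -0.25, with EGLN3, a prolyl hydroxylase, at a log2 change of 2.97 and ANGPTL4, a lipase inhibitor, at -2.96. Of 16 KLF family genes tested 7 rose and 7 fell (43.8% each, beside 38% and 34.9% of all genes). Mitochondrially encoded genes were called higher in 6 of 13 cases and lower in 1 (46.2% and 7.69%, beside 38% and 34.9% of all genes). The libraries of the treatments were separate for 3 of these 13, beside 12520 of all 23928 genes tested. MT-CO2 stood at 0.42 and MT-CO1 at 0.36, and with library totals 11 of the 13 were higher and 0 lower.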
